A study of Ovis aries with 8 samples.

Results

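Lysosomal genes were followed in the lungs of 8 late-gestation sheep fetuses, 4 exposed to aldosterone and 4 controls. The probes were chosen by their array descriptions, as those that held at least 1 of 10 words for cathepsins, lysosomal proteins, vacuolar ATPase subunits, saposins, hexosaminidase, napsin, cystatins or legumain, with surfactant probes left out. Only 4 of the words matched anything. They gave 7 of the 15008 non-control probes, standing for 6 of the 991 genes that could be named. The genes are cathepsin D (CTSD, 2 probes), the hexosaminidase alpha chain (HEXA), lysosomal acid lipase (LIPA), prosaposin (PSAP), the c subunit of the proton pump (ATP6V0C) and RILPL2, a Rab-interacting protein. All 7 probes were well above background on all 8 arrays.

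The fetuses came from 4 sets of twins at about 130 days of a 147-day gestation. Every fetus had surgery, and infusions began 5 days later. The aldosterone group received 0.2 mg of aldosterone, the adrenal mineralocorticoid, over 48 hours, and the control twin received vehicle. RNA of each lung, 450 ng, was labelled with Cy3 and hybridised to its own 1-colour array, so each group held 4 separate lungs. The comparison asks whether 48 hours of raised aldosterone altered transcript levels in the fetal lung. The samples are whole lung tissue, so fewer cells of a type and less RNA per cell cannot be told apart in any value below.

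Lysosomes break down proteins, lipids and sugars with hydrolases that work at acid pH, and the vacuolar ATPase supplies that acidity by pumping protons across the membrane. In alveolar type II cells a lysosome-related organelle, the lamellar body, stores surfactant, and alveolar macrophages use lysosomes to digest what they engulf. The 6 genes therefore include enzymes (CTSD, HEXA, LIPA), an enzyme activator (PSAP) and a pump subunit (ATP6V0C). RILPL2 entered by the word lysosomal in its full name and is not a lysosomal enzyme. It is a cytosolic relative of the Rab7 effector RILP.

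The probes that carry the main values are shown as the scanner files list them, each 60 bases long, 5′ to 3′. PSAP is shown for having the largest difference of the 7 probes, both CTSD probes because they test how closely repeated measurements of 1 transcript agree, and ATP6V0C because its mean was the only one that was lower after aldosterone. Capitals mark the single base that each CTSD probe does not share with the other.
PSAP: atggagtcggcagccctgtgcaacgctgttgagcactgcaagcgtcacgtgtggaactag
CTSD probe 1: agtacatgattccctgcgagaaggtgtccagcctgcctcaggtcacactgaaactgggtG
CTSD probe 2: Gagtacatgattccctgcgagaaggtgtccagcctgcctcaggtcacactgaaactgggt
ATP6V0C: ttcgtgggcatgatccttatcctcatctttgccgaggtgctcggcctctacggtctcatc
The CTSD probes start at bases 889 and 888 of the source transcript and share 59 bases, so they are a repeat measurement and not separate evidence. G and C made up 58.3% of the PSAP probe and 55% of the other 3.

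Levels below are the log2 of a probe's processed signal relative to the 75th percentile of its array. They compare lungs for 1 probe, not probes with each other. A difference is the aldosterone mean less the control mean on that scale, with limma's standard error (SE) and n = 4 per group. On each array 76.49% to 85.41% of the spots exceeded background clearly by the scanner's own criterion, and the 8 arrays correlated at 0.966 to 0.989 over the probes tested. The number of arrays, 8, and the spread between lungs both limit how precise a difference can be.

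No lysosomal gene was called. The aldosterone mean was the higher for 6 of the 7 probes and the lower for 1, and 0 passed the adjusted threshold of 0.05 in limma, where 0 of 12168 probes on the array passed (0%). At an unadjusted p under 0.05 the lysosomal probes also numbered 0, against 229 (1.88%) of all probes tested, 1.28% being higher and past it. The differences ran from -0.06 for ATP6V0C to 0.39 for PSAP, with a median of 0.22, where the median of all probes tested was 0.007. That median was 0.10 without aldosterone replicate 3, 0.36 without aldosterone replicate 1 and -0.01 in slide row 1 alone. Counted by gene, with CTSD once, 5 of 6 were higher, with a median of 0.21. Higher means made up 51.4% of all probes tested. When the arrays were set on the authors' scale that share was 39.2%, and 5 of the 7 lysosomal probes were higher. For all 7 probes the ranges of the groups overlapped, while 1.31% of all probes tested had groups that did not overlap, 0.83% with the aldosterone lungs higher.

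PSAP had the largest difference of the 7 probes. Prosaposin is cut in the lysosome into the saposins, small proteins that help hydrolases reach sphingolipids. Its level in the controls was 2.84, 2.38, 2.30 and 2.86 for replicates 1 to 4, and after aldosterone it was 2.68, 3.02, 2.99 and 3.24. The lowest aldosterone lung, replicate 1, lay below the controls of replicates 1 and 4, and the other 3 aldosterone lungs lay above every control. The difference was 0.39 ± 0.19 (SE, n = 4 per group), a 1.31-fold ratio with a 95% interval of 0.972 to 1.755. It did not pass in limma (adjusted p = 0.9998), and 4.28% of all probes tested had a larger difference.

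CTSD, the main aspartic protease of lysosomes, was read by the overlapping pair of probes. On probe 1 the controls gave 2.46, 2.38, 2.60 and 2.60 for replicates 1 to 4, and the aldosterone lungs gave 2.26, 2.50, 3.15 and 3.02. On probe 2 the controls gave 2.56, 2.54, 2.68 and 2.67, and the aldosterone lungs 2.45, 2.60, 3.22 and 3.10. Aldosterone replicates 3 and 4 were above every control on both probes, and aldosterone replicate 1 was below every control. The difference was 0.22 ± 0.21 on probe 1 and 0.23 ± 0.19 on probe 2, and neither passed in limma (adjusted p = 0.9998 each). Without aldosterone replicate 3 the differences were 0.082 and 0.10, and without aldosterone replicate 1 they were 0.38 and 0.36. Within an array the second probe exceeded the first by 0.11 ± 0.045 (SD over 8 arrays), with a range of 0.07 to 0.18. The lungs themselves spread far more in the aldosterone group, where the SD was 0.42 on probe 1 and 0.38 on probe 2. Among the controls it was 0.11 and 0.072.

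HEXA encodes the alpha chain of the enzyme that degrades the ganglioside GM2. Its level in the controls was -1.22, -0.83, -0.97 and -0.27, and after aldosterone it was -1.27, -0.71, -0.58 and 0.04, again for replicates 1 to 4. Replicate 1 had the lowest value of each group and replicate 4 the highest of each group. The difference was 0.19 ± 0.30, and it did not pass in limma (adjusted p = 0.9998). Without aldosterone replicate 4 it was -0.033, and without aldosterone replicate 1 it was 0.40.

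LIPA hydrolyses cholesteryl esters and triglycerides inside lysosomes. The controls gave -1.25, -1.35, -1.77 and -1.55 and the aldosterone lungs -1.44, -0.56, -1.70 and -1.28. Aldosterone replicate 2 stood above all 7 other lungs, and the remaining 3 aldosterone lungs lay within the range of the controls. The difference was 0.23 ± 0.25, which did not pass in limma (adjusted p = 0.9998), and without aldosterone replicate 2 it was 0.0045. LIPA had processed signals of 394 to 998 on the scanner's linear scale, all well above background.

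ATP6V0C forms the membrane ring of the proton pump that turns as protons cross. The controls gave 0.68, 1.07, 1.1 and 1.1, and the aldosterone lungs 0.76, 0.97, 1.02 and 0.98. Replicate 1 was the lowest of both groups, and the other 6 lungs lay within a narrow band. The difference was -0.06 ± 0.15 (95% interval -0.39 to 0.27), or 0.961-fold with an interval of 0.764 to 1.209, and it did not pass in limma (adjusted p = 0.9998). Without aldosterone replicate 1 it was 0.0009.

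RILPL2 gave 1.68, 1.35, 1.93 and 2.44 in the controls and 1.42, 1.57, 2.03 and 2.52 after aldosterone. Replicate 4 was highest and replicates 1 and 2 were lowest in both groups. The difference was 0.03 ± 0.30 (95% interval -0.64 to 0.71), which did not pass in limma (adjusted p = 0.9998). Its sign turned when the arrays were centred on their medians (-0.0056) and on the authors' scale (-0.026).

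**Figure D1:**
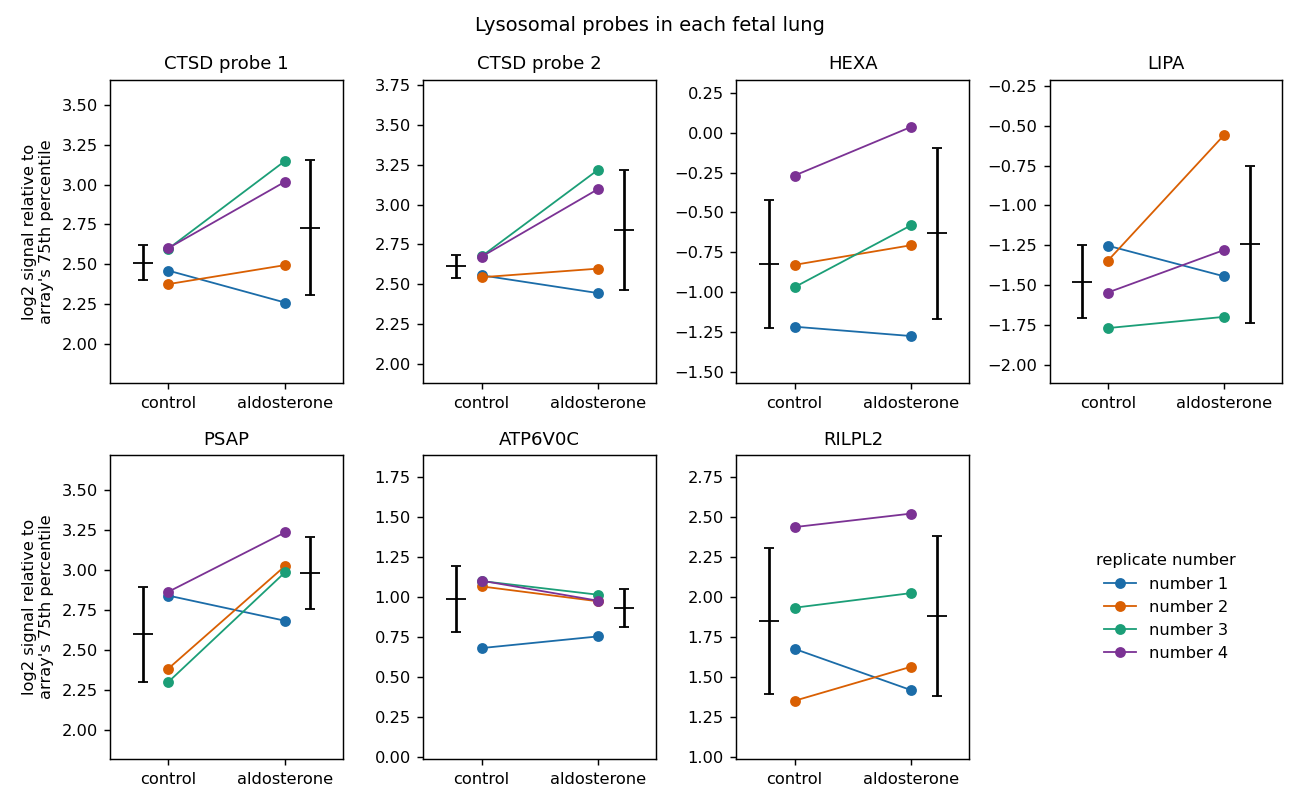
Log2 level of each lysosomal probe (signal relative to the array's 75th percentile) in the 4 control and 4 aldosterone lungs, with lines joining same-numbered lungs and black marks giving the group mean ± SD. Groups overlap in every panel, and replicate number 4 is the highest of both groups in HEXA, PSAP and RILPL2.

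Same-numbered lungs were compared next. The labels give twins and a replicate number, and same-numbered lungs deviated together across the array, so a number was taken to mark a pair. The difference between the lungs of pair 1 was below 0 for 6 of the 7 lysosomal probes, with a median of -0.16. It was above 0 for 6 of 7 in each of pairs 2, 3 and 4, where the medians were 0.12, 0.39 and 0.30. Over all probes tested the median of pair 1 was -0.0023 and those of pairs 2 to 4 were -0.03, 0.0042 and 0.05. The probe that ran the other way was ATP6V0C in every pair, at 0.07 in pair 1 and -0.09, -0.09 and -0.13 in pairs 2 to 4.

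PSAP gave pair differences of -0.16, 0.64, 0.69 and 0.37, and LIPA gave -0.19, 0.79, 0.07 and 0.27. CTSD on probe 2 gave -0.11, 0.05, 0.54 and 0.42. HEXA gave -0.06, 0.12, 0.39 and 0.30, and RILPL2 gave -0.26, 0.21, 0.09 and 0.08. The order of the pairs differed between genes, since LIPA and RILPL2 were largest in pair 2 while CTSD, HEXA and PSAP were largest in pair 3. A higher aldosterone lung in at least 3 of 4 pairs was found for 6 of the 7 probes, and for 33% of all probes tested. The 6 probes share the same 8 lungs and the same exception, pair 1, so they are not 6 separate counts. No lysosomal probe was higher in 4 of 4 pairs, where 7.57% of all probes tested were.

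**Figure D2:**
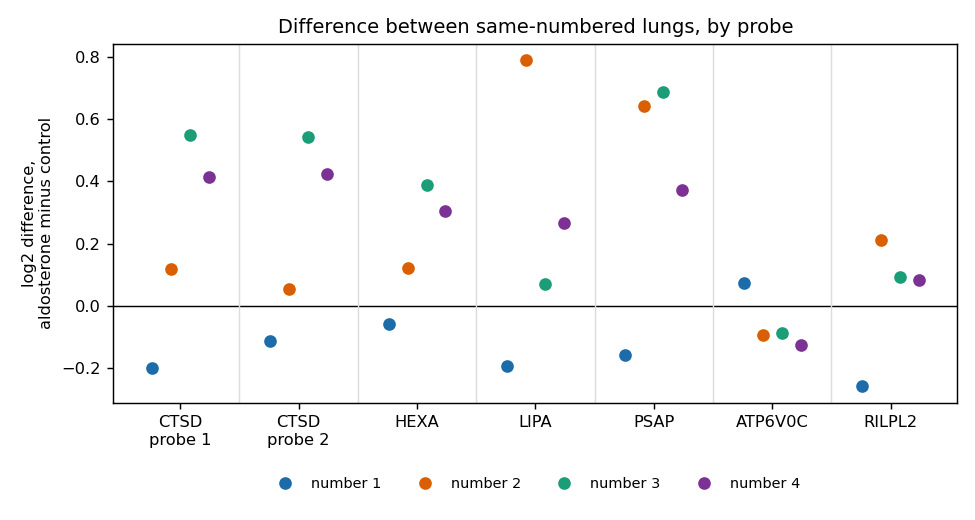
Log2 difference between the aldosterone and the control lung of each replicate number, for each lysosomal probe. Pair 1 lies below 0 for all probes but ATP6V0C, and pairs 2 to 4 lie above 0 for all probes but ATP6V0C.

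The pairs themselves differed in level. The mean level of HEXA was -1.24 in pair 1, -0.77 in pairs 2 and 3 and -0.12 in pair 4, and that of RILPL2 was 1.55, 1.46, 1.98 and 2.48 in pairs 1 to 4. Replicate numbers held 95.6% of the variance around the group means for HEXA and 95.5% for RILPL2, against a median of 71.8% over all probes tested. They held 93% for ATP6V0C, 70.7% and 67.8% for the CTSD probes, 70.4% for LIPA and 46.4% for PSAP. Unrelated lungs would also give shares well above 0, since each number holds only 1 lung of each group. In limma's F test of the replicate number, HEXA and RILPL2 each had an adjusted p of 0.101, and 0 of the 7 probes passed, while 37 of 12168 did (0.304%). With 1 replicate number left out, 10 to 35 probes passed, and the adjusted p ran from 0.0987 to 0.498 for HEXA and from 0.101 to 0.498 for RILPL2, highest for both without number 4. These 2 of the 7 were under an unadjusted p of 0.05, as were 24.9% of all probes tested. With the number in the model the SE of HEXA went from 0.30 to 0.12 and that of RILPL2 from 0.30 to 0.13. The differences themselves stay the same in that fit, and 0 of the 7 passed (limma, smallest adjusted p = 0.879), where 0 of 12168 probes passed (0%). At an unadjusted p under 0.05 the lysosomal count was also 0 with the number in the model, against 4.42% of all probes tested. Arrays that share a number lay in the same row of the slide as well, and each row held 2 numbers. A difference in level between pairs of unlike rows therefore cannot be told apart from one between the rows. Within a row the pairs differed too. HEXA had -1.24 and -0.77 in row 1 and -0.77 and -0.12 in row 2, and RILPL2 had 1.55 and 1.46 in row 1 and 1.98 and 2.48 in row 2.

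The arrays of replicates 1 and 2 lay in row 1 of the slide and those of replicates 3 and 4 in row 2, so each row held 2 lungs of each group. CTSD had a difference of -0.04 in row 1 and 0.48 in row 2 on probe 1, and of -0.03 and 0.48 on probe 2. PSAP had 0.24 in row 1 and 0.53 in row 2, HEXA 0.03 and 0.35, LIPA 0.30 and 0.17, ATP6V0C -0.01 and -0.11, and RILPL2 -0.02 and 0.09. For CTSD the difference between rows was 0.52 ± 0.25 on probe 1 and 0.51 ± 0.24 on probe 2 (SE). It did not pass in limma for any of the 7 probes (adjusted p = 0.999 each), and 0 of 12168 probes passed (0%), with 2.07% at an unadjusted p under 0.05.

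Other lysosome and autophagy genes were looked up by symbol in a list of 105, of which 17 genes were measured. By the brightest probe of each, the aldosterone mean was the higher for 13 and the lower for 4, with a median difference of 0.07, and 0 passed the adjusted threshold or an unadjusted p under 0.05 in limma. Their differences ran from -0.16 to 0.42, and for 14 of the 17 the SE was larger than the difference in the fit of the group alone. With the replicate number in the model each of these SEs was smaller, so fewer of the 17 had an SE above their difference. The 7 hydrolases and hydrolase partners among them had 6 higher means and a median of 0.16. The 7 genes of membrane, transport and sorting had 4 higher and 3 lower means and a median of 0.02. The 2 other pump subunits and the autophagy receptor SQSTM1 had higher means. Of the 17, CTSF, CTSL2 and CLN6 were added from the array's gene column, and without them 10 of 14 were higher, with a median of 0.08.

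The cysteine protease CTSB gave 1.13, 1.1, 1.02 and 0.85 in the controls and 1.23, 1.85, 1.15 and 1.19 after aldosterone, a difference of 0.33 ± 0.18 that was positive in 4 of 4 pairs. Without aldosterone replicate 2 it was 0.16. LGMN, the asparaginyl endopeptidase that processes cathepsins, gave 3.95, 3.89, 3.50 and 3.44 in the controls and 4.04, 4.66, 3.11 and 3.83 after aldosterone. Its difference was 0.21 ± 0.30 on that probe and 0.11 ± 0.28 on the other. CTSS, a cysteine protease of antigen-presenting cells, gave 1.5, 1.04, 0.96 and 1.84 in the controls and 1.2, 2.29, 0.51 and 1.45 after aldosterone, a difference of 0.03 ± 0.36. The differences of the cathepsins CTSF and CTSL2 were 0.17 ± 0.16 and 0.05 ± 0.15. Aldosterone replicate 2 was the highest of the 8 lungs for CTSB, LGMN and CTSS, as for LIPA. It was highest for 1 of the 7 lysosomal probes, 4 of the 17 other genes and 12.4% of all probes tested. Aldosterone replicate 4 was highest for more, at 3 of the 7, 6 of the 17 and 21.1% of all probes tested.

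Of the cytosolic part of the proton pump, ATP6V1B2 gave -1.32, -1.21, -1.09 and -1.11 in the controls and -1.13, -1.26, -0.58 and -1.13 after aldosterone. Its difference was 0.16 ± 0.17, and 0.10 ± 0.15 on its second probe. Without aldosterone replicate 3 the first was 0.01. ATP6V1E1 gave 1.49, 1.41, 1.60 and 1.75 in the controls and 1.40, 1.47, 1.69 and 1.83 after aldosterone, a difference of 0.03 ± 0.15. With ATP6V0C, all 3 measured pump subunits had differences no larger than their SE in the fit of the group alone. With the replicate number in the model the SE of ATP6V1B2 was 0.14 on its first probe, below the difference. It was 0.11 on the second probe, above the difference, and the other subunits kept SEs above theirs.

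**Figure D3:**
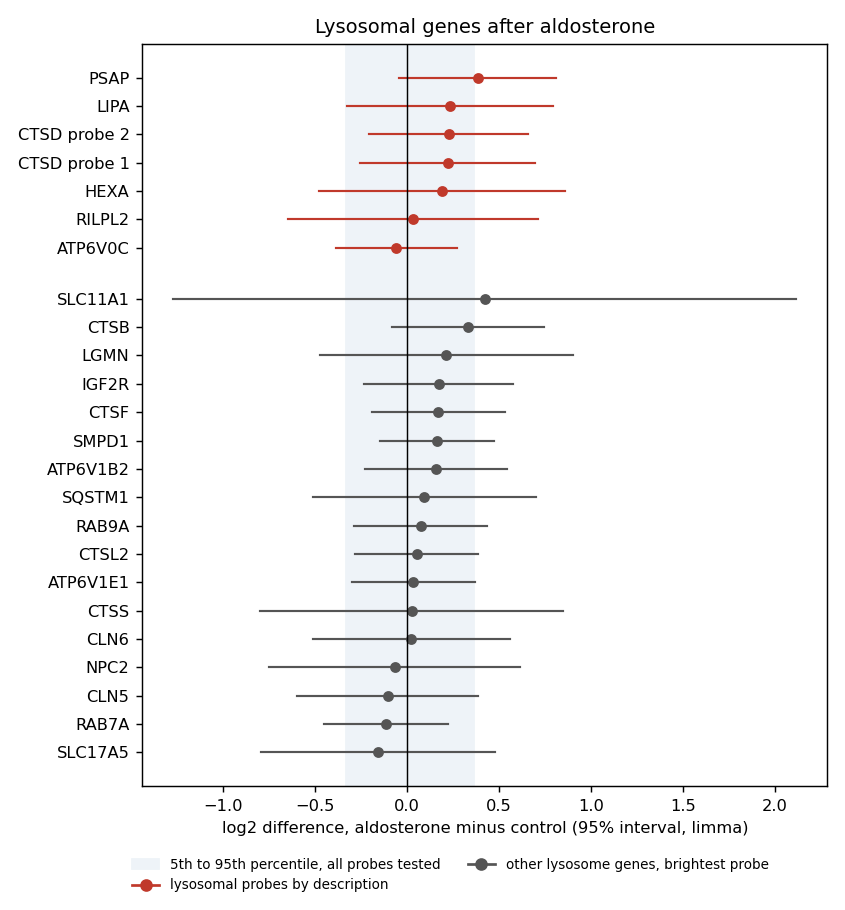
Log2 difference between the aldosterone and control means (dots) with 95% intervals from limma (lines), for the 7 lysosomal probes in red and the brightest probe of 17 other lysosome genes in grey. Every interval includes 0, and of the 7 lysosomal probes PSAP lies highest at 0.39, just beyond the shaded band from the 5th to the 95th percentile of all probes tested.

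Markers of the cells that hold these organelles were read in the same lungs, by the brightest probe of each gene. Of 13 macrophage and monocyte markers 4 were measured (CD14, CYBB, CYBA and ITGAM). After aldosterone the mean was the higher for 3 and the lower for 1, and 0 passed in limma. The lower one was ITGAM, which exceeded background clearly in 3 control lungs and 1 aldosterone lung. CD14, a monocyte and macrophage receptor, had pair differences of -0.10, 0.98, 0.39 and 0.42, and its difference was 0.42 ± 0.23. CYBA gave -0.06, 0.24, 0.24 and 0.39, CYBB gave 0.59, 1.02, 0.65 and -0.39, and ITGAM gave -1.38, -1.35, 0.17 and -0.79. The difference of CYBB was 0.47 ± 0.38 on that probe, higher in 3 of 4 pairs. On its other probe it was 0.21 ± 0.44, higher in 2 of 4 pairs. CD14 and CYBA were thus lower in pair 1 and higher in pairs 2 to 4, and CYBB and ITGAM were not. All lysosomal probes but ATP6V0C had those signs, and the share of all probes with them was not counted. The metal transporter SLC11A1 of macrophage lysosomes was highest in aldosterone replicate 2, at 0.65 against -3.42 to -1.48 in the other 7 lungs, where LIPA was highest too. The summed signal of the macrophage list, relative to the 75th percentile, ran from 1.34 to 2.22 in controls and from 1.27 to 2.89 after aldosterone. CYBA made up most of that sum, since its mean log2 level in controls was 0.46 and that of CD14, the next, was -2.08. Of 10 type II cell markers 4 were measured, the surfactant proteins, with 2 higher and 2 lower means. The split depends on the probe, since SFTPB had a difference of -0.10 on the brightest and 0.05 on its other probe. The summed signal of the 4 was 455 to 631 in controls and 372 to 602 after aldosterone. Of 9 neutrophil markers 5 were measured, all with lower means, 0 past the adjusted threshold in limma and 3 at an unadjusted p under 0.05, where 1.88% of all probes tested were. Their sum ran from 6.31 to 27.6 in controls and from 4.15 to 8.17 after aldosterone. The part of these cells in the values of the lysosomal genes was not tested.

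**Figure D4:**
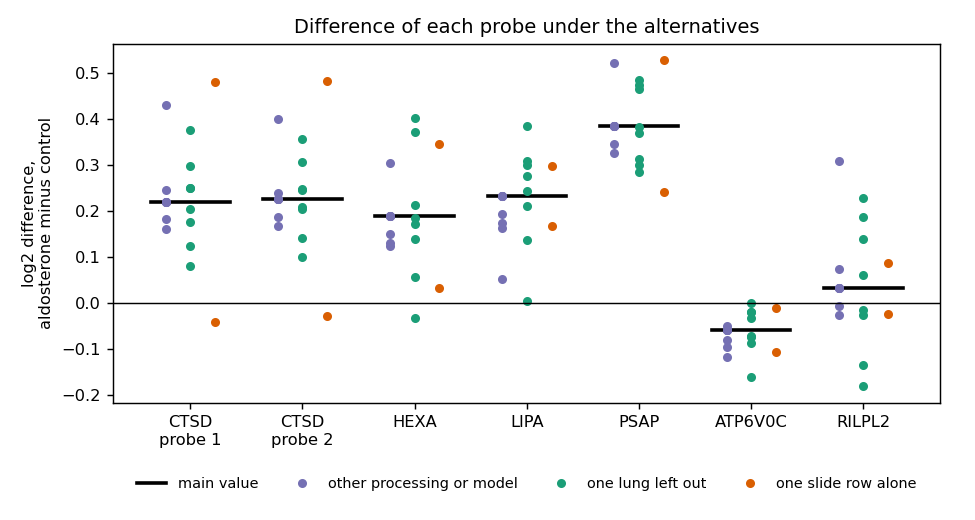
Log2 difference of each lysosomal probe in the main analysis (black line) and under 18 alternatives (dots), namely other processing or models, 1 lung left out, or 1 slide row alone. PSAP and LIPA stay above 0 throughout, PSAP between 0.24 and 0.53, while RILPL2 lies below 0 in 7 of the 18 and above 0 in the other 11.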

How the data were processed

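Each deposited array file gives the intensity of its spots, not log transformed. Agilent Feature Extraction 10.1.1.1 produced it, per the file headers, and subtracted background and removed spatial trends within each array. The deposited series table holds the authors' log2 values, which equal the log2 processed signal less a constant per array (median 0 in each column).

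The log2 processed signal, with the 75th percentile of its array subtracted, was averaged over spots of a probe, with 74 flagged outlier values left out. Probes well above background on at least 4 arrays were tested, 12168 in all. Names came from the array or from a RefSeq table (ARS-UI_Ramb_v3.0), which was used for names alone, and 10941 tested probes had no gene name. Groups were compared with limma 3.58.1 in R 4.3.3 (two-sided, Benjamini-Hochberg adjustment over all probes tested). The fit was tried on simulated arrays with independent noise and planted differences larger than that of any lysosomal probe. That trial does not show how the fit handles smaller differences or lungs that vary together. The members, lists and named genes were chosen with earlier results of these data known. Values in every lung were given for all members and for CTSB, CTSS, legumain and the pump subunits of a list, by the brightest probe; CTSF, CTSL2 and CLN6 were added to that list from the array's gene column, and 1 gene of it is not reported here. The tests of the replicate number and of the slide row were added after the data were seen.

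The model held the group alone, and the replicate number was an alternative. After group means were removed, same-numbered lungs correlated at 0.275 to 0.538 and others at -0.449 to 0.204 over probes, so a shared number was treated as a pair; the labels give twins but do not tie the numbers to them. Labels name separate fetuses as the replicates. The alternatives covered centring, normexp with quantile normalization, the authors' values, the filter, the block, slide row, array weights and each lung left out.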

Additional observations from a re-analysis of the deposited data

Results flagged for a closer look

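In groups of 4 lungs, 5 values stood apart from the others of their group by a gap above Dixon's 95% critical value, among 84 groups of values looked at; chance alone flags about 1 in 20 groups. ATP6V0C had 2 of them, both in replicate 1: the control lung was lowest at 0.68, where the next was 1.07, and the aldosterone lung was lowest at 0.76, where the next was 0.97. CTSB was highest in aldosterone replicate 2 at 1.85, where the next lung was at 1.23. Among type II cell markers, SFTPC was lowest in aldosterone replicate 1 at 7.97 and SFTPD highest in control replicate 4 at 3.77.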

How the results depend on the processing

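No lysosomal probe was called under any of the 18 alternatives, and the smallest adjusted p of a lysosomal probe in limma ran from 0.459 to 1. Over all probes tested 0 were called under each alternative as well, so the lysosomal count does not set these genes apart. With the replicate block the count of called probes was 0 and no call changed. The number at an unadjusted p under 0.05 was 3 with array weights (PSAP at 0.52 and both CTSD probes at 0.43 and 0.40), where 10.5% of all probes tested fell under it. With each lung left out it ran from 0 to 1, and the share of all probes tested from 1.18% to 3.45%. The 1 was PSAP, without control replicate 4 (3.16% of all probes) and without aldosterone replicate 1 (3.45%). The median difference was 0.22 in the main analysis, 0.10 to 0.36 with each lung left out and -0.01 in slide row 1 alone.

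Differences below 0 arose for RILPL2 on array medians (-0.0056), on the authors' scale (-0.026) and in row 1 alone (-0.023), and in row 1 alone for CTSD (-0.041 and -0.029). With each lung left out, RILPL2 ran from -0.18 to 0.23, HEXA from -0.033 to 0.40, ATP6V0C from -0.16 to 0.0009 and LIPA from 0.0045 to 0.38. Array weights put LIPA at 0.053 and RILPL2 at 0.31. Among the other lysosome genes, CTSS turned on array medians (-0.013), on the authors' scale (-0.033), with array weights (-0.11) and in row 2 alone (-0.42), and ran from -0.28 to 0.31 with each lung left out. LGMN turned with array weights (-0.15) and in row 2 (-0.0016), and ran from -0.035 to 0.48. ATP6V1E1 turned on array medians (-0.0038), on the authors' scale (-0.024) and in row 1 (-0.012), and ran from -0.043 to 0.10. SLC11A1 turned in row 2 (-0.14) and ran from -0.36 to 0.99. The cause of these turns was not tested.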
